A study of Arabidopsis thaliana and Lotus japonicus with 44 samples.

Results

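In roots of *Lotus japonicus*, 94 of 49868 annotated transcripts differed between plants with and without the arbuscular mycorrhizal fungus (AMF) in the wild type Gifu while their group means stayed nearly level in *cyclops-4*, a knockout mutant of *IPD3*. They were selected on their own counts, so the differences between treatments in both genotypes that made them members are a description and not a test. A transcript was chosen by 4 criteria on CPM, its counts scaled by the library total. The ratio of the Gifu +AMF mean to the Gifu −AMF mean, each with 0.5 CPM added, had to be 2 or more or 0.5 or less. No Gifu +AMF library was allowed to overlap a Gifu −AMF library, the same ratio in *cyclops-4* had to lie within 1.3-fold of 1, and the higher Gifu group had to hold a mean of 10 or more counts, which 10340 transcripts did. Of the 94 members, each from a different gene, 79 were higher and 15 were lower with AMF in Gifu.

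IPD3, called CYCLOPS in Lotus, is a transcription factor of the common symbiosis pathway. In this pathway, signals from the fungus at the root surface trigger calcium oscillations in the nucleus, a calcium- and calmodulin-dependent kinase decodes them, and IPD3 is phosphorylated by that kinase and activates genes that prepare root cells to admit the fungus. Mutants that lack a functional IPD3 fail to form arbuscules. The upstream receptors and the kinase remain intact in such mutants, so the comparison of both genotypes asks which responses to AMF depend on IPD3.

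The libraries were 4 of Gifu −AMF, 4 of Gifu +AMF, 3 of *cyclops-4* −AMF and 3 of *cyclops-4* +AMF. Each held the roots of 5 seedlings aged 6 weeks, pooled from a single plate of 1/2 MS medium, and the +AMF plants had been exposed to germinated spores of *Rhizophagus irregularis* for 48 h, while the −AMF plants were mock-inoculated with water. The mutant was represented by a single allele, *cyclops-4*. A library is thus a pool of seedlings from 1 plate, and p-values measure the spread between such pools. No table used here annotates the Lotus identifiers, so members are given by identifier alone, without gene names or roles, and root identity was not checked against markers. In roots measured in bulk, fewer cells of a type and less RNA per cell cannot be told apart.

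Library totals ran from 2466468 to 2871520 counts. Lotus read pairs were counted as forward-stranded, and 74.4% to 81.9% of each library's counts fell on the 12.1% of transcripts with exons annotated opposite them. That share was highest in replicate 2 of Gifu −AMF (81.9%) and next in replicate 3 of *cyclops-4* +AMF (79.7%), which are also the libraries that stood apart in the members, as described for each group. Replicate 2 of Gifu −AMF had the fewest transcripts with at least 10 counts, 8173, against 9093 to 10740 in the other 13 libraries. Leaving out replicate 2 of Gifu −AMF gave 104 members under the same rule, 63 of them shared with the 94, and leaving out replicate 3 of *cyclops-4* +AMF gave 92 members with 70 shared. Without both libraries there were 105 members, 61 higher and 44 lower, and 47 of the 94 were among them.

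Before *cyclops-4* was considered, 190 transcripts met the Gifu criteria, 154 higher and 36 lower with AMF. In *cyclops-4*, 79 of the 154 were within 1.3-fold, 43 had a ratio above 1.3 and 32 had a ratio below 1/1.3, that is, lower with AMF. Of the 36 lower transcripts, 15 were within 1.3-fold, 20 were lower with AMF in *cyclops-4* by more than this and 1 was higher. Among all 10340 transcripts with enough counts, 79.6% lay within 1.3-fold in *cyclops-4*, compared with 49.5% of the 190. The same rule with the genotypes exchanged, moved in *cyclops-4* and level in Gifu, found 27 transcripts, 9 higher and 18 lower. The last count is not directly comparable, since 3 libraries against 3 avoid an overlap more easily than 4 against 4.

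The Gifu ratio of the 79 higher members had a median of 2.30 between extremes of 2.02 and 4.62, and 9 of them exceeded 3. Their mean count in Gifu +AMF was between 11.25 and 2185, 50.75 at the median, and was below 20 in 16 of them. The ratio of the 15 lower members had a median of 0.458 between 0.331 and 0.490, and their mean count in Gifu −AMF ran from 11 to 5602.5. In *cyclops-4* the ratio had a median of 0.949 in the higher and 0.863 in the lower members. Most members thus sat close to the minimum of the rule, and the strongest differences were between 4-fold and 5-fold.

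**Figure D1:**
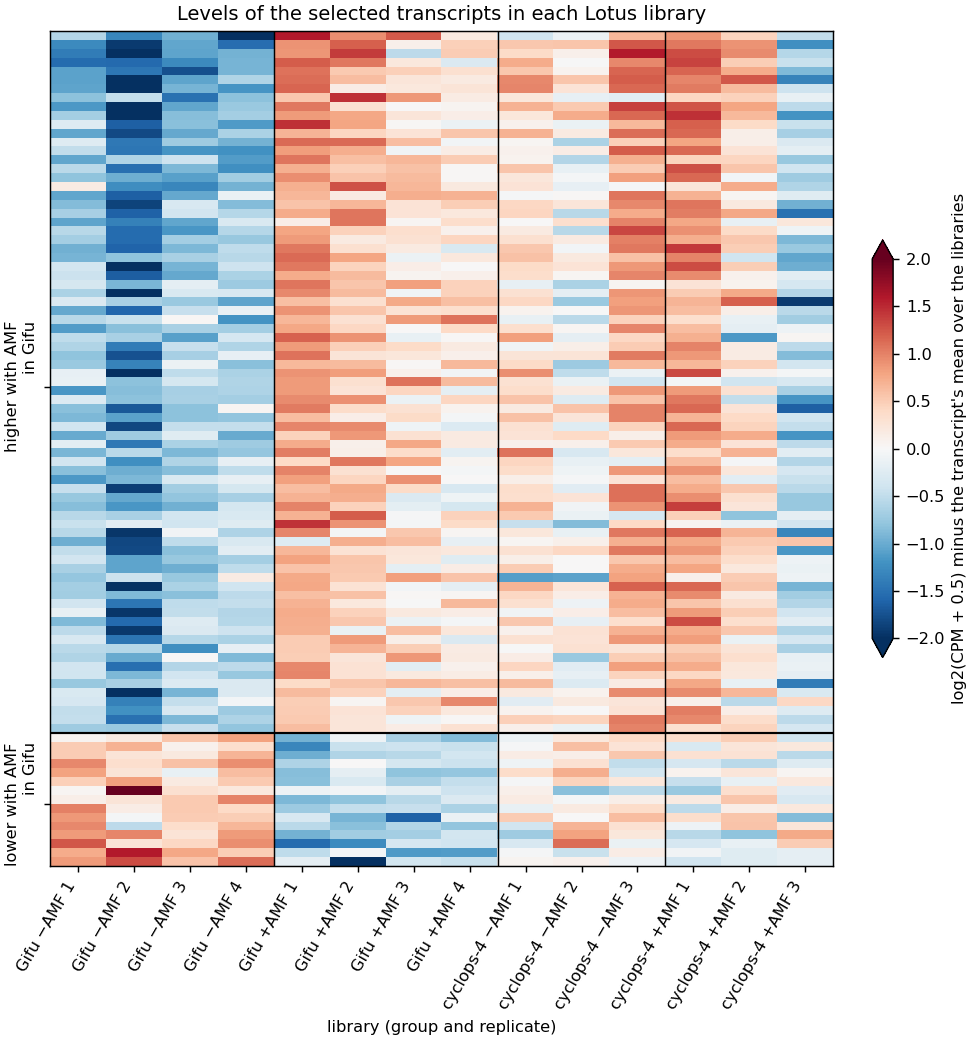
Heat map of log2(CPM + 0.5) minus each transcript's mean over the 14 Lotus libraries, with 1 row per member, sorted by Gifu ratio within the 79 higher (above the horizontal line) and the 15 lower members, and 1 column per library. The Gifu −AMF libraries are blue in the higher members, most of all replicate 2, while the *cyclops-4* libraries of both treatments are mostly red, except replicate 3 with AMF.

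In 72 of the 79 higher members, *cyclops-4* plants without AMF had a mean nearer to the level of Gifu with AMF than to that of Gifu without AMF. Their log2 level in *cyclops-4* −AMF exceeded that in Gifu −AMF by a median of 1.12 (quartiles 0.917 and 1.36), a difference in the same direction in 79 of 79 members, whereas the median over all 10340 transcripts was 0.03. Against Gifu +AMF, the median log2 difference was only −0.06, with 37 members above and 42 below Gifu +AMF. The *cyclops-4* +AMF mean was nearer to Gifu +AMF in 73 of the 79. Because the rule picked transcripts that were low in the 4 Gifu −AMF libraries, a comparison with these libraries shares their values with the choice and is not independent of it. The comparison with Gifu +AMF shares libraries with the rule in the same way, since these were picked for being high.

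LotjaGi2g1v0214300.1 had the largest ratio of all members, 4.62. Its CPM was 10.4, 6.08, 7.89 and 3.33 in Gifu −AMF (mean 6.91 ± 2.96, SD, n = 4) and 48.5, 30.7, 37.5 and 18.2 in Gifu +AMF (33.7 ± 12.7, SD, n = 4). In *cyclops-4* it was 11.9, 14.6 and 25.3 without AMF and 29.6, 21.6 and 11.1 with AMF. All *cyclops-4* −AMF libraries lay above all Gifu −AMF libraries, and replicate 4 of Gifu +AMF lay within the range of *cyclops-4*. It is a transcript of 1 exon and 1161 bases on the plus strand of chromosome 2, from 66431100 to 66432260 in the Gifu V1.2 assembly.

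LotjaGi3g1v0283700.1 and LotjaGi3g1v0016300.1 were the only members for which the difference of the AMF response between the genotypes passed an adjusted p of 0.05 in edgeR. LotjaGi3g1v0283700.1, on chromosome 3 from 57082193 to 57086694 (plus strand, 9 exons), had 4.07, 2.43, 4.88 and 3.33 CPM in Gifu −AMF and 20.04, 24.8, 11.4 and 14.8 in Gifu +AMF. Its *cyclops-4* values were 15.5, 15.7 and 25.7 CPM without AMF. With AMF they were 22.3, 20.1 and 4.21 CPM, so that replicate 3 fell to the level of Gifu −AMF and the other 2 libraries stayed at that of Gifu +AMF.

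LotjaGi3g1v0016300.1, on chromosome 3 from 1700748 to 1707179 (minus strand, 10 exons), had 4.44, 1.62, 4.88 and 4.07 CPM in Gifu −AMF and 22.5, 10.9, 11.4 and 11.8 in Gifu +AMF. Replicate 1 of Gifu +AMF stood well above the other 3, which lay close together. Its *cyclops-4* values were 19.8, 11.97 and 22.4 CPM without AMF and 20.5, 15.5 and 7.26 with AMF. Every *cyclops-4* library lay above every Gifu −AMF library.

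**Figure D2:**
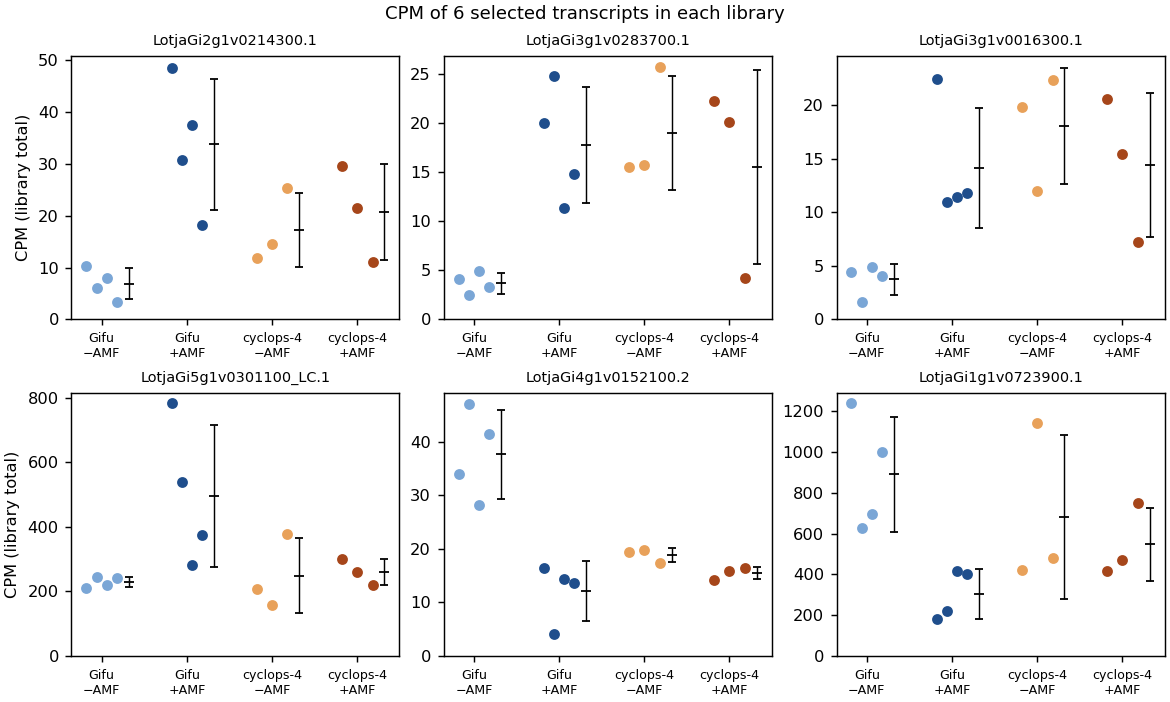
CPM by library total (y axis, linear, from 0) of 4 higher and 2 lower members in the 4 Lotus groups (x axis), with 1 point per library and, to the right of the points, the group mean with its SD. In LotjaGi3g1v0283700.1 replicate 3 of *cyclops-4* +AMF lies at 4.21 CPM, among the Gifu −AMF libraries, and LotjaGi5g1v0301100_LC.1 and LotjaGi4g1v0152100.2 show a *cyclops-4* level near Gifu −AMF and near Gifu +AMF respectively.

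The other members among the 10 largest ratios were LotjaGi2g1v0203100.1 (4.28), LotjaGi3g1v0550800.1 (3.93), LotjaGi6g1v0326900.1 (3.72), LotjaGi1g1v0544100_LC.1 (3.45), LotjaGi2g1v0213700.1 (3.23), LotjaGi1g1v0712500_LC.1 (3.16) and LotjaGi5g1v0323600_LC.1 (2.97). LotjaGi1g1v0544100_LC.1 and LotjaGi2g1v0213700.1 rested on a mean of 15.75 counts in Gifu +AMF, the fewest of these. LotjaGi1g1v0544100_LC.1 had 0 counts in replicate 2 of Gifu −AMF, which allows up to 3 counts by counting error alone. LotjaGi1g1v0712500_LC.1 had a mean of 266 counts, with 32.2, 11.4, 34.5 and 42.9 CPM in Gifu −AMF, 150, 88.7, 72.0 and 74.85 in Gifu +AMF, 117, 103 and 185 in *cyclops-4* −AMF and 173, 125 and 50.1 in *cyclops-4* +AMF. In this member *cyclops-4* −AMF was above Gifu +AMF on average, at 135 ± 43.97 CPM (SD, n = 3) against 96.5 ± 36.7 (SD, n = 4), within the spread of the libraries.

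The most counted higher member was LotjaGi3g1v0224400_LC.1, with a mean of 2185 counts in Gifu +AMF. Its CPM was 413, 168, 426 and 506 in Gifu −AMF and 1138, 809, 641 and 585 in Gifu +AMF. In *cyclops-4* it was 1062, 783 and 1499 without AMF and 1474, 976 and 348 with AMF, so the mutant libraries covered a wider range than either Gifu group. LotjaGi5g1v0314800.1, with 471.5 counts, had 73.2, 66.9, 72.85 and 92.4 CPM in Gifu −AMF and 262, 162, 132 and 128 in Gifu +AMF. In *cyclops-4* it had 170, 124 and 241 CPM without AMF and 246, 155 and 104 with AMF, all above every Gifu −AMF library. LotjaGi1g1v0172100.1, with 194.5 counts, was lowest in replicate 2 of Gifu −AMF at 13.8 CPM, when the other 3 lay between 35.5 and 37.7.

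LotjaGi5g1v0301100_LC.1, with 1364.5 counts in Gifu +AMF, went against this pattern. It had 211, 245, 219 and 242 CPM in Gifu −AMF (229 ± 16.7, SD, n = 4) and 784, 539, 281 and 374 in Gifu +AMF. In *cyclops-4* it had 209, 158 and 379 CPM without AMF and 300, 262 and 221 with AMF. Of these 6 libraries, 4 lay below every Gifu +AMF library, and the means of both *cyclops-4* groups were nearer to Gifu −AMF. In all, 7 higher members had a *cyclops-4* −AMF mean nearer to Gifu −AMF than to Gifu +AMF, among them LotjaGi2g1v0213700.1 and LotjaGi4g1v0170400.1. LotjaGi4g1v0170400.1 had 25.5, 17.03, 28.5 and 19.6 CPM in Gifu −AMF, 69.2, 48.2, 57.7 and 45.2 in Gifu +AMF, and 20.96 to 39.4 in the 6 *cyclops-4* libraries, all below Gifu +AMF.

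The *cyclops-4* +AMF and −AMF libraries overlapped in 79 of 79 higher members, but the rule admitted only nearly level means in *cyclops-4* and set no limit on the spread of replicates, so this overlap follows in part from the choice. Replicate 1 was the highest of the 3 *cyclops-4* +AMF libraries in 70 members and replicate 3 was the lowest in 72, where over all 10340 transcripts these shares were 38.9% and 60.5% rather than 88.6% and 91.1%. The highest *cyclops-4* +AMF library exceeded the lowest by a median factor of 2.55 in the higher members, and by 1.52 over all transcripts. Replicate 3 of *cyclops-4* −AMF was the highest of its group in 66 members (83.5%), beside 34.4% of the 10340 transcripts. Taken by library, replicate 1 of *cyclops-4* +AMF was nearer to the Gifu +AMF mean than to the Gifu −AMF mean in 76 of the 79 members, replicate 2 in 67 and replicate 3 in 13. Without AMF the numbers were 73, 49 and 72 for replicates 1, 2 and 3.

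The level ratio in *cyclops-4* therefore rested on an average over unlike libraries. Without replicate 3 of *cyclops-4* +AMF, the median ratio of the 79 members in *cyclops-4* was 1.13 and 21 of them exceeded 1.3, with none at 2 or more. Without replicate 1 of *cyclops-4* +AMF the median ratio was 0.743, and 43 members fell below 1/1.3. Without replicate 3 of *cyclops-4* −AMF it was 1.13, and 1 member reached 2. The share of counts on transcripts with an exon opposite them moved alongside, at 74.99% in replicate 1, 75.2% in replicate 2 and 79.7% in replicate 3 of *cyclops-4* +AMF. In Gifu −AMF, replicate 2 was the lowest library in 59 of the 79 members (74.7%), beside 64.1% of the 10340 transcripts, and had the share of 81.9%. The part of this share in the differences between libraries was not tested.

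**Figure D3:**
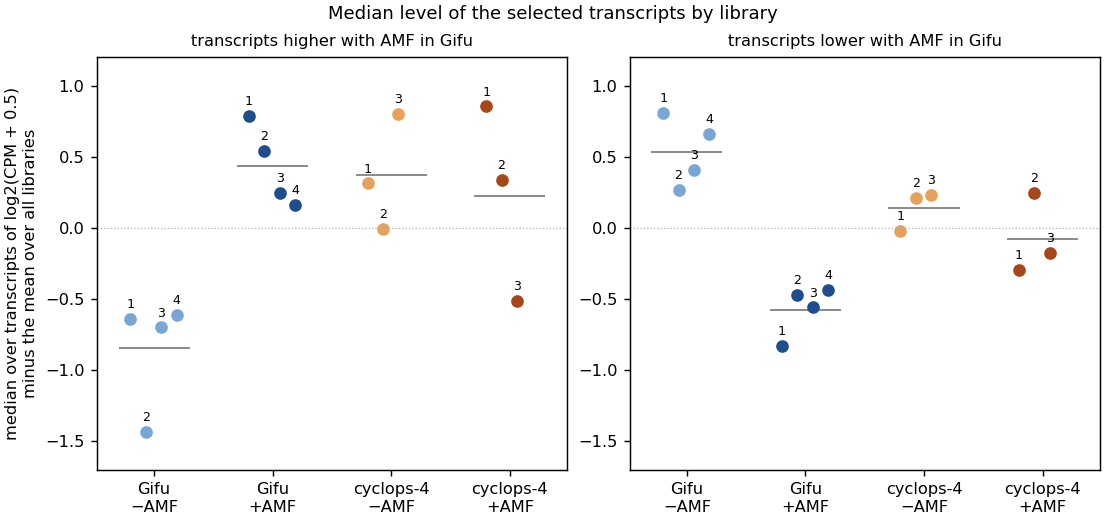
Median over the 79 higher members (left) and the 15 lower members (right) of log2(CPM + 0.5) minus the mean over all libraries (y axis), for each library (points, numbered by replicate) of the 4 groups (x axis), with a line at the mean of the points. In the higher members, replicate 3 of *cyclops-4* +AMF at −0.52 lies just above the Gifu −AMF libraries other than replicate 2, at −0.70 to −0.61, while the other 5 *cyclops-4* libraries lie between −0.01 and 0.85.

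The median log2 level of the higher members relative to all libraries was −0.64, −1.44, −0.70 and −0.61 in Gifu −AMF and 0.79, 0.54, 0.25 and 0.16 in Gifu +AMF. It was 0.31, −0.01 and 0.80 in *cyclops-4* −AMF and 0.85, 0.34 and −0.52 in *cyclops-4* +AMF. The same median over all 10340 transcripts ran from −0.41 in replicate 2 of Gifu −AMF to 0.18 in replicate 1 of Gifu +AMF, so that part of the low value of the former was common to all transcripts. After TMM scaling, which removes such shifts, the members' median was −1.09 in replicate 2 of Gifu −AMF and −0.74 to −0.71 in the other 3 Gifu −AMF libraries. It was −0.34 in replicate 3 of *cyclops-4* +AMF.

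The difference between the genotypes without AMF was fitted across 12616 transcripts with edgeR's quasi-likelihood test. Of the 79 higher members, 47 were called higher in *cyclops-4* than in Gifu at an adjusted p under 0.05, and none lower, while 2.14% of all tested transcripts were called higher. The fit shares the 4 Gifu −AMF libraries with the rule, so nothing about the members follows from these counts beyond their size. The median log2 fold change was 1.14 over the 79 and −0.04 over all tested. Without replicate 3 of *cyclops-4* −AMF, 22 of the 79 were called higher, and without replicate 2 of Gifu −AMF 37 were. Over all 12616 tested transcripts the calls higher in *cyclops-4* fell from 270 to 112 and 233 in these fits.

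In LotjaGi1g1v0712500_LC.1 the log2 fold change of *cyclops-4* over Gifu without AMF was 2.11 ± 0.25 (SE, edgeR adjusted p = 2.75e-06). It was 2.28 ± 0.29 in LotjaGi3g1v0283700.1 (adjusted p = 8.02e-06) and 2.18 ± 0.30 in LotjaGi3g1v0016300.1 (adjusted p = 2.26e-05). In LotjaGi2g1v0203100.1 it was 2.33 ± 0.38 and in LotjaGi1g1v0544100_LC.1 2.39 ± 0.45, both called. LotjaGi2g1v0214300.1, with the largest AMF ratio in Gifu, had 1.24 ± 0.31 (adjusted p = 0.0206), and was not called without replicate 3 of *cyclops-4* −AMF (adjusted p = 0.383) or without replicate 2 or 4 of Gifu −AMF (adjusted p = 0.0638 and 0.0875). LotjaGi2g1v0213700.1 had 0.93 ± 0.54 and LotjaGi5g1v0301100_LC.1 had 0.01 ± 0.24, and neither was called.

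Counted by libraries alone, 61 of the 79 higher members had all *cyclops-4* −AMF libraries above all Gifu −AMF libraries, as did 7.67% of the 10340 transcripts. In 77 of the 79, the *cyclops-4* −AMF libraries overlapped those of Gifu +AMF, and in the other 2 they lay below. This comparison shares the Gifu +AMF libraries with the rule, and its share over all transcripts was not counted.

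**Figure D4:**
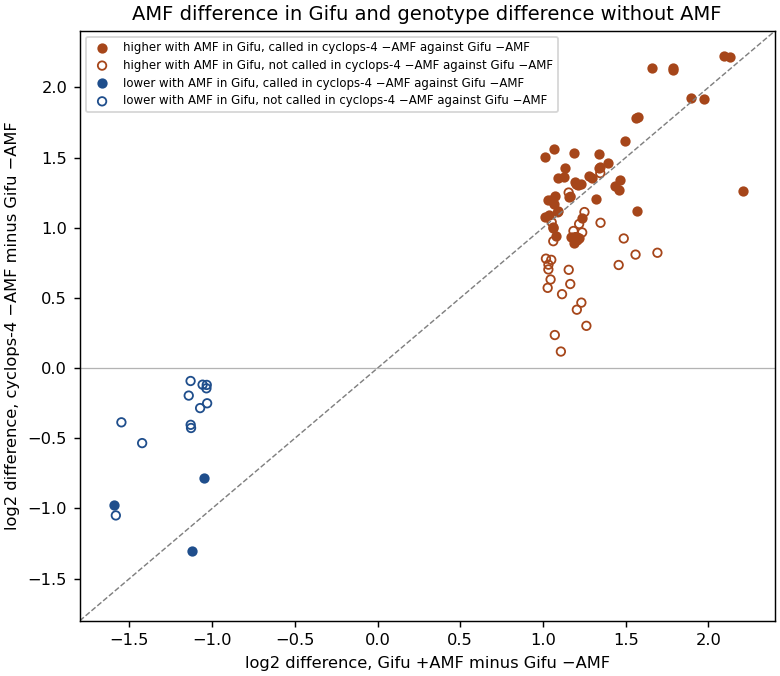
Log2 difference of group means (CPM + 0.5) between *cyclops-4* −AMF and Gifu −AMF (y axis) against that between Gifu +AMF and Gifu −AMF (x axis) for the 94 members, filled where edgeR called the genotype difference without AMF, with the dashed line marking equal values. Both axes share the Gifu −AMF libraries. The higher members lie on both sides of the line, 37 of the 79 above it, and 14 of the 15 lower members lie above it, closer to 0 on the y axis.

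The 15 lower members were placed differently. Their log2 level in *cyclops-4* −AMF was below that in Gifu −AMF by a median difference of −0.39 and above that in Gifu +AMF by 0.79. The *cyclops-4* −AMF mean was nearer to Gifu −AMF in 11 of the 15, and the *cyclops-4* +AMF mean in 8. All 3 *cyclops-4* −AMF libraries were below all Gifu −AMF libraries in 3 members, compared with 2.71% of the 10340 transcripts. The same libraries were above all Gifu +AMF libraries in 9 members. For this the share over all transcripts was not counted, and the Gifu +AMF libraries were picked for being low in these members. Their medians by library did not follow those of the higher members, with 0.81, 0.26, 0.41 and 0.66 in Gifu −AMF, −0.83, −0.47, −0.56 and −0.44 in Gifu +AMF, −0.02, 0.21 and 0.23 in *cyclops-4* −AMF and −0.30, 0.24 and −0.17 in *cyclops-4* +AMF.

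LotjaGi4g1v0152100.2 had the smallest ratio, 0.331, with 34.0, 47.03, 28.2 and 41.4 CPM in Gifu −AMF and 16.5, 4.01, 14.3 and 13.7 in Gifu +AMF. Its *cyclops-4* values varied little, with 19.5, 19.8 and 17.4 CPM without AMF and 14.3, 15.8 and 16.4 with AMF, all below every Gifu −AMF library. Without AMF it was called lower in *cyclops-4* with a log2 fold change of −1.10 ± 0.25 (SE, edgeR adjusted p = 0.00733), and the call was lost without replicate 3 of *cyclops-4* −AMF (adjusted p = 0.0708). It is transcript 2 of a gene on the plus strand of chromosome 4, from 25065195 to 25080237, and 66.9% of its exon length lies opposite exons of LotjaGi4g1v0152200.1, whose own Gifu ratio was 0.930.

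LotjaGi1g1v0723900.1, with a mean of 2367 counts in Gifu −AMF, had 1239, 629, 698 and 1001 CPM there and 180, 220, 418 and 400 in Gifu +AMF. In *cyclops-4* it had 422, 1145 and 479 CPM without AMF and 417, 472 and 752 with AMF. Replicate 2 of *cyclops-4* −AMF and replicate 3 of *cyclops-4* +AMF lay within the range of Gifu −AMF, and the other 4 lay between 417 and 479 CPM. LotjaGi1g1v0005100.1, the most counted member with a mean of 5602.5 counts in Gifu −AMF, had 2078, 2647, 1687 and 2133 CPM in Gifu −AMF and 838, 1201, 954 and 1068 in Gifu +AMF. In *cyclops-4* it had 1472, 2039 and 1750 CPM without AMF and 1081, 1347 and 1731 with AMF, between both Gifu groups or inside the range of one of them.

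In LotjaGi1g1v0467600.1 the ratio of 0.460 rested on a single library. Its CPM was 14.8, 62.4, 18.02 and 16.6 in Gifu −AMF and 13.4, 13.9, 12.5 and 10.6 in Gifu +AMF. Without replicate 2 the log2 difference of +AMF from −AMF was −0.38, compared with −1.12 over all libraries. It was called lower in *cyclops-4* without AMF with a log2 fold change of −1.51 ± 0.42 (SE, edgeR adjusted p = 0.0464), and without replicate 2 of Gifu −AMF this was −0.54 ± 0.24 and not called (adjusted p = 0.320). The call was also lost without replicate 2 or without replicate 3 of *cyclops-4* −AMF (adjusted p = 0.173 and 0.187). LotjaGi6g1v0036500.1, with 535 counts, was likewise called lower in *cyclops-4*, with −0.85 ± 0.22 (adjusted p = 0.0256), and it lost the call without replicate 1 or 3 of *cyclops-4* −AMF (adjusted p = 0.138 and 0.358) or without replicate 1 or 4 of Gifu −AMF (adjusted p = 0.0739 and 0.0552). It had 238, 154, 184 and 232 CPM in Gifu −AMF, 79.8, 123, 95.9 and 90.8 in Gifu +AMF, and 84.1 to 150 in the *cyclops-4* libraries. In all, 3 of the 15 lower members were called lower in *cyclops-4* without AMF, and 0.452% of all tested transcripts were.

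The other named lower members were LotjaGi4g1v0278200_LC.1 (ratio 0.334), LotjaGi5g1v0293200_LC.1 (0.373), LotjaGi4g1v0434800.1 (0.453), LotjaGi6g1v0065600.1 (0.457), LotjaGi3g1v0053200.1 (0.457) and LotjaGi1g1v0689700.1 (0.458). LotjaGi4g1v0278200_LC.1 and LotjaGi3g1v0053200.1 had under 20 counts on average, 12.5 and 13.25. LotjaGi4g1v0434800.1 had 153, 53.9, 99.5 and 123 CPM in Gifu −AMF and 53.8, 43.4, 51.8 and 44.8 in Gifu +AMF. Its 6 *cyclops-4* libraries, from 59.9 to 125 CPM, all lay above every Gifu +AMF library.

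With AMF, no member was called between the genotypes by edgeR, whereas 0.135% of all tested transcripts were called in either direction. At an unadjusted p under 0.05 in edgeR there were 14 of the 94 members, beside 666 of the 12616 tested transcripts. DESeq2 called 1 member, beside 25 of all tested transcripts. The smallest edgeR adjusted p was 0.138, in LotjaGi4g1v0434800.1, which had a log2 fold change of 0.95 ± 0.21 (SE) for *cyclops-4* over Gifu. The median log2 fold change was −0.14 over the higher members, 0.67 over the lower members and 0.0015 over all tested transcripts. In the lower members the direction was higher in *cyclops-4* in 14 of 15. By group means it was higher in 5209 of the 10340 transcripts with enough counts. The fit shares the Gifu +AMF libraries with the rule, which picked them for being high or low. These medians and directions are therefore not independent of the choice.

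The tests of the values the rule used are given only as a description of the members. The AMF contrast in Gifu called 68 of the 79 higher members higher and 11 of the 15 lower members lower, when 2.05% and 0.856% of all tested transcripts were called in these directions. In *cyclops-4* no member was called for AMF by edgeR or DESeq2, with 0.119% of all tested transcripts called by edgeR. No member had an unadjusted edgeR p under 0.05, and 827 of the 12616 tested transcripts did. The difference of the AMF response between the genotypes was called in 2 members, with 0.151% of all tested transcripts called. An unadjusted edgeR p under 0.05 was found in 82 members and in 875 of the 12616 tested transcripts. The difference was 2.48 ± 0.49 on the log2 scale in LotjaGi3g1v0283700.1 (SE, edgeR adjusted p = 0.0366) and 2.16 ± 0.44 in LotjaGi3g1v0016300.1 (adjusted p = 0.0455). With DESeq2, 9 members were called, beside 45 of all tested transcripts. Neither edgeR call survived the loss of any single Gifu −AMF library. Both were also lost without replicate 1 of Gifu +AMF, replicate 3 of *cyclops-4* −AMF or replicate 2 of *cyclops-4* +AMF. Without replicate 1 of *cyclops-4* +AMF the number of members called was 31, beside 92 of all tested transcripts.

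Near the threshold of the Gifu ratio, LotjaGi3g1v0022600.1 (2.02) and LotjaGi4g1v0255600.1 (2.02) were just inside and LotjaGi3g1v0446000.1 (1.996) and LotjaGi1g1v0111800.1 (1.99) just outside. Among the lower transcripts LotjaGi1g1v0574100.1 (0.490) and LotjaGi2g1v0404000.1 (0.489) were just inside, and LotjaGi2g1v0221800.1 (0.513) and LotjaGi1g1v0580700.1 (0.517) just outside. The 4 outside met all other criteria.

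The members differed from the other counted transcripts in features that the rule did not use. Transcripts of a single exon made up 35.1% of the 94 members (33 transcripts) and 13.9% of the 10340 with enough counts. Their exon length had a median of 1855 bases, and that of the 10340 a median of 2772. Genes with more than 1 annotated transcript accounted for 10 of the 94 members (10.6%) and for 18.2% of the 10340. Identifiers with the suffix _LC in the annotation numbered 7 (7.45%), beside 11.2%. An exon of the opposite strand overlapped 13 members (13.8%), beside 23.9%, and 10 members had at least 50% of their length so placed. These shares are set side by side without a test, and the counts behind them were similar, with a median of 52.1 counts in the higher Gifu group for members and 41.75 for all.

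Chromosomes 1, 2, 3, 4, 5 and 6 held 24, 10, 10, 23, 13 and 14 members. Chromosome 4 had 24.5% of the members and 16.1% of the 10340 transcripts, and chromosome 3 had 10.6% and 18.3%. Few members were neighbours. LotjaGi2g1v0404000.1 and LotjaGi2g1v0404100.1 overlap each other on opposite strands of chromosome 2 and had ratios of 0.489 and 0.488 in Gifu and 0.853 and 0.863 in *cyclops-4*. LotjaGi2g1v0404000.1 had 1002, 1140, 753 and 889 CPM in Gifu −AMF and 284, 516, 529 and 519 in Gifu +AMF, and LotjaGi2g1v0404100.1 had 56.6, 47.8, 45.8 and 64.0, then 20.04, 25.9, 26.8 and 30.8. A further 3 pairs lay within 100000 bases of each other. They were LotjaGi2g1v0213700.1 with LotjaGi2g1v0214300.1 (86433 bases apart) and LotjaGi5g1v0323100.1 with LotjaGi5g1v0323600_LC.1 (62837), all higher, and LotjaGi1g1v0689100.1, higher, with LotjaGi1g1v0689700.1, lower (63249).

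The transcripts opposite the other overlapping members mostly had smaller ratios. LotjaGi5g1v0301200_LC.1, opposite LotjaGi5g1v0301100_LC.1, had a Gifu ratio of 2.09 and a *cyclops-4* ratio of 0.894 and missed the rule by an overlap of its Gifu libraries. LotjaGi1g1v0005200.1, opposite LotjaGi1g1v0005100.1, had 0.579 and 0.814. Opposite 6 higher members that overlap over their whole length, the ratio of the partner in Gifu ran from 0.947 to 1.43. These partners had mean counts of 621 to 6350.5 in their higher Gifu group, and the 6 members 26 to 190.5. With the strand setting of the counts in doubt, a transcript and its opposite partner could not be told apart with certainty. Without all overlapping transcripts the rule kept 81 members, 70 higher and 11 lower. Leaving these transcripts out does not remove the doubt, since the remaining members were counted with the same strand setting. Whether their counts come from the annotated strand was not tested.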

How the data were processed

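Counts of read pairs per annotated transcript in roots were deposited by the authors without normalization. By the methods and file headers, the authors assigned reads to plant or fungus with BBSplit, discarded ambiguous reads and counted pairs on the Gifu V1.2 annotation with featureCounts v2.0.1, forward-stranded for Lotus and reverse-stranded for Arabidopsis. The paper describes a strand-specific library preparation and names no difference between the species. Whether the Lotus setting matches the libraries is not given in the sources used here and was not tested. Counts of a member may therefore include reads from the strand opposite its annotation. GEO's processing notes name HISAT2 in place of BBSplit. The 30 Arabidopsis libraries were not used here.

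Groups came from the sample labels. CPM divides counts by the library total. Replicate pairs differed by 3.51 to 18.0 in chi-square per degree of freedom, so none was merged. Contrasts were fitted in edgeR 4.0.16 (R 4.3.3, limma 3.58.1) by quasi-likelihood with TMM scaling and Benjamini-Hochberg adjustment. Transcripts needed 10 or more counts in 1 or more Lotus libraries, and each contrast used its own groups. A standard error is the log2 fold change divided by the square root of its F statistic. The tests and the selection rule were tested on simulated data. Alternatives were DESeq2 1.42.0, other scalings, filters, offsets and windows, and each library left out in turn.

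The members, lists and tests were chosen with earlier results of these data known. The text names, in each direction, the 10 largest Gifu ratios and the 5 highest counts, members called in the difference of the AMF response, and the transcripts nearest the threshold on each side. LotjaGi4g1v0170400.1, LotjaGi2g1v0404100.1, LotjaGi5g1v0323100.1, LotjaGi1g1v0689100.1, LotjaGi4g1v0086700.3 and the transcripts opposite members were named after their values were seen. The sources used here give no identifier for the mutated gene, which is not reported.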

Additional observations from a re-analysis of the deposited data

Results flagged for a closer look

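In 62 sets of 4 Gifu libraries examined for the 29 named members and the members' medians, 6 had a library far from the other 3. In independent sets chosen without regard to their values, chance gives about 1 in 20. In 4 of the 6 this library was replicate 2 of Gifu −AMF. Its median level of the higher members, relative to the mean over all libraries, was −1.44 on the log2 scale, with the other 3 between −0.70 and −0.61. It held 13.8 CPM of LotjaGi1g1v0172100.1 against 35.5 to 37.7 in the others, 0.811 CPM of LotjaGi5g1v0323600_LC.1 against 4.51 to 5.18, and 62.4 CPM of LotjaGi1g1v0467600.1 against 14.8 to 18.02. In replicate 1 of Gifu +AMF, LotjaGi3g1v0016300.1 was at 22.5 CPM against 10.9 to 11.8 in the others, and LotjaGi2g1v0404000.1 was at 284 CPM against 516 to 529. Groups of 3 libraries, which include both *cyclops-4* groups, were not examined in this way. The 62 sets share the same Gifu libraries, and members were named by their values in them. The rate of 1 in 20 is therefore no test of these 6.

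The AMF response differed between Gifu and *cyclops-4* by 2.48 on the log2 scale in LotjaGi3g1v0283700.1 (edgeR adjusted p = 0.0366) and by 2.16 in LotjaGi3g1v0016300.1 (edgeR adjusted p = 0.0455). Both were selected for this difference, so that it is no independent result.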

How the results depend on the processing

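The set of 94 members became 61 with 2 CPM added to group means, 171 without a count minimum, 10 with a Gifu ratio of 3 and 190 without the *cyclops-4* window, an alternative chosen after seeing the data. Leaving out each library gave 65 to 159 members, and fewer libraries also make an overlap less likely. The counts furthest above 94 were 148 without replicate 4 of Gifu −AMF, 159 without replicate 3 and 146 without replicate 4 of Gifu +AMF. The other alternatives gave 64 to 131. TMM scaling gave 112 members with 88 shared and DESeq2 size factors 105 with 80 shared. Scaling by the counts on transcripts without opposite-strand overlap, also chosen after seeing the data, gave 115 with 87 shared, so between 6 and 14 of the 94 depended on the scaling. Summed per gene, 93 members were kept, all but LotjaGi4g1v0086700.3.

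Without TMM, 42 instead of 79 members were called for AMF in Gifu, 26 instead of 50 between the genotypes without AMF and 0 instead of 2 for the difference of the AMF response. Over all tested transcripts these calls were 167 instead of 366, 147 instead of 327 and 1 instead of 19. The members called for the difference of the response were 9 with DESeq2, 36 with a common dispersion and 40 without a filter. All tested transcripts gave 45, 149 and 160. With AMF, 1 member was called between the genotypes by DESeq2, 3 with a common dispersion and 3 without a filter, and none by edgeR as designed. The same fits called 25, 114, 137 and 17 of all tested transcripts. Leaving out each library gave 54 to 76 members for AMF in Gifu, 22 to 57 between the genotypes without AMF, 0 to 1 with AMF and 0 to 31 for the difference of the response. Over all tested transcripts the calls then ran from 184 to 349, 150 to 339, 7 to 27 and 1 to 92. The median difference of the higher members between *cyclops-4* −AMF and Gifu −AMF stayed between 0.89 and 1.32, and that from Gifu +AMF between −0.30 and 0.12, changing sign with the library left out. For the lower members these ranges were −0.46 to −0.17 and 0.68 to 0.91. No named member changed direction in Gifu under another scaling or with a library left out. With a library left out this follows from the rule, which allowed no overlap of the Gifu libraries, and so it is no check. The causes of these changes were not tested.

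The replicate numbers did not pair the libraries, since libraries of the same number had correlations of 0.086, −0.013, 0.046 and −0.135 between the Gifu treatments. With the replicate block, 81 members were called for AMF in Gifu, 38 between the genotypes without AMF, 0 with AMF, 0 for AMF in *cyclops-4* and 2 for the difference of the response. Over all tested transcripts these calls were 555, 267, 4, 18 and 16. Members with 10 to 20 counts carry the widest counting error, and an absent call in *cyclops-4*, with 3 libraries against 3, does not show an absent response.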
